A study of Glycine max with 4 samples.

Results

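Chromosomes 19 and 20 of the soybean (Glycine max) were selected on peak density, being chosen among its 20 chromosomes because their starts held few regions of open chromatin and their ends many. The regions were taken from the peak list of the study, and every peak placed on either chromosome was included. That gave 543 peaks on chromosome 19 and 457 on chromosome 20, or 1000 of the 11436 peaks in the list. The other 18 chromosomes carried 9719 peaks and served for comparison.

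Nuclei came from embryos of the cultivar Williams 82, which were hand-dissected at the early-maturation stage, when seeds measured 6 to 7 mm. Open chromatin was profiled by ATAC-seq, a method that uses Tn5 transposase to place adapters for sequencing in DNA left free by nucleosomes. The 2 biological replicates were each sequenced single-end and paired-end, and the authors used the paired-end samples only, per the series' design text. All samples were of the same cultivar, tissue and stage, and the labels name no treatment and no control group.

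The deposited peak list gave positions only. It named no replicate and held no height, score or read count, so the depth behind each peak was unknown and no peak carried a replicate error. Both chromosomes were chosen for the contrast between start and end in this same list. Density, its change along the chromosome and the long stretches without peaks are therefore described without a test. Widths did not enter the choice, and spacing entered it only through density, but peaks and chromosomes of a single list are not replicates, so these too are given as values, ranks among chromosomes and intervals. Intervals on shares are 95% exact (Clopper-Pearson) binomial intervals and cover counting error only, treating peaks as independent although neighbouring peaks clustered. Positions count from 1 on the build of the deposited list, a build not given in the sources used here, so no gene was assigned to a peak and the tissue label could not be checked against marker genes.

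In plant nuclei, accessible sites mark promoters and more distant regulatory elements, where transcription factors displace nucleosomes. Soybean chromosomes typically have gene-rich arms that recombine often, and around the centromere a long, repeat-rich and compact region with few genes. The centromere need not lie in the middle, so that the compact region can reach closer to one end of a chromosome than to the other. In embryos at early maturation the cotyledons begin to fill with storage protein and oil. Where the compact regions lie on chromosomes 19 and 20 was not compared with the peaks.

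Chromosome 19 had an overall density within the range of the others and the densest end of all. Its 543 peaks over 50.5 Mb, measured from the first base to the end of the last peak, gave 10.7 peaks per Mb, and 5 of the other 18 chromosomes were less dense. The first 25% of the span held 110 peaks (8.71 per Mb), the inner 50% held 163 (6.45 per Mb) and the last 25% held 270 (21.4 per Mb). No other chromosome had as dense an end, the next being chromosome 13 with 19.9 peaks per Mb. The start was sparser only on chromosomes 13 and 3 among the other 18, and on chromosome 20.

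Chromosome 20 was the least dense of all 20 chromosomes. Its 457 peaks over 47.7 Mb gave 9.57 per Mb, just under the 9.65 of chromosome 16. The first 25% held 85 peaks (7.12 per Mb), the inner 50% held 148 (6.20 per Mb) and the last 25% held 224 (18.8 per Mb). The end was thus denser than on 16 of the other 18 chromosomes, and the start was sparser than on 17 of them.

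Expressed as the share of outer peaks that lay at the start, chromosome 20 had 27.5% (interval 22.6 to 32.8) and chromosome 19 had 28.9% (24.4 to 33.8). Chromosome 13 was lower at 23.0% (18.3 to 28.2) and chromosome 3 next above at 31.2% (26.1 to 36.7). Chromosome 2 followed at 41.4% (36.4 to 46.5). Since chromosomes 19 and 20 were chosen on this contrast, these values and intervals are a description only. At the opposite extreme, chromosome 6 had 64.5% of its outer peaks at the start, and the start was the denser side on 11 of the 20 chromosomes.

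**Figure D1:**
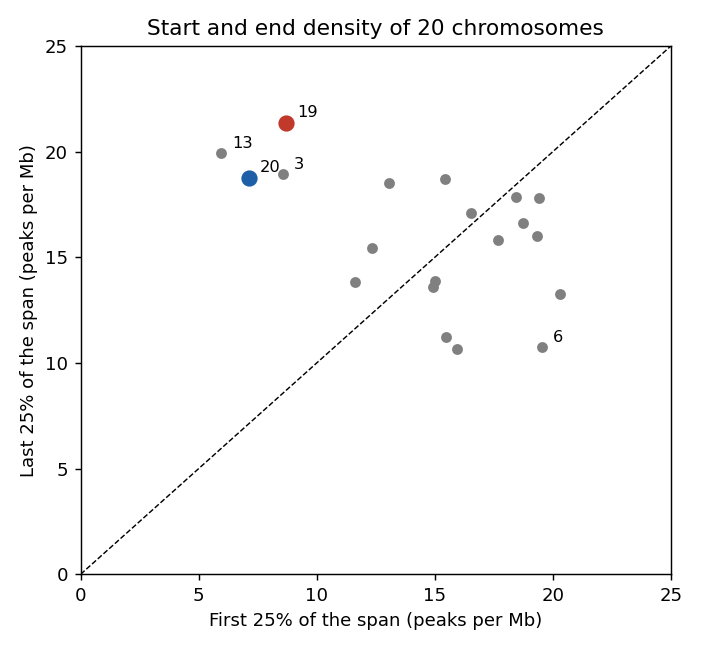
Peaks per Mb in the first 25% (horizontal) and the last 25% (vertical) of the span of each of the 20 chromosomes, with chromosome 19 in red, chromosome 20 in blue, the others in grey and the line of equality dashed. Chromosomes 13, 20, 19 and 3 lie apart at the upper left, with starts of 5.94 to 8.71 peaks per Mb and ends of 18.8 to 21.4.

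Relative to their own inner part, the sparse starts were not empty. The start of chromosome 19 was 1.35-fold as dense as its inner part, and that of chromosome 20 was 1.15-fold as dense. Over the other 18 chromosomes this ratio had a median of 2.14 and reached 4.06 on chromosome 4. Chromosome 13 differed from both, since its start had fewer peaks per Mb than its inner part, with a ratio of 0.498. Chromosome 3, with 1.31, resembled chromosomes 19 and 20.

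The tip of the start carried more peaks than the sequence behind it on chromosome 20, but no such tip stood out on chromosome 19. In the first 5 Mb there were 56 peaks on chromosome 19 and 53 on chromosome 20, against a median of 99 on the other 18 chromosomes and only 24 on chromosome 13. The first peak lay at 64981 to 65557 on chromosome 19 and at 106431 to 107123 on chromosome 20. The peaks that closed the spans lay at 50525995 to 50526827 and at 47747515 to 47747982. On chromosome 20 the first Mb had 10 peaks, the second 16 and the third 12, after which no window of 1 Mb held more than 8 until that from 8 to 9 Mb. On chromosome 19 each of the first 9 windows of 1 Mb held 7 to 14 peaks, and the fall came later.

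Taken in 20 bins of equal length, chromosome 20 was below the mean of the other 18 chromosomes in 14 bins and chromosome 19 in 12. In its first bin chromosome 20 had 13.8 peaks per Mb, with 3 of the other chromosomes lower. The bins centred at 12.5% and 22.5% of its span, at 2.93 peaks per Mb each, were lower than the same bins of all other 18 chromosomes. On chromosome 19 the bin centred at 37.5% of the span was the lowest, with 1.98 peaks per Mb, against 9.41 ± 6.77 on the others (SD, n = 18 chromosomes). Toward the end both chromosomes passed the others. Chromosome 20 exceeded all 18 in the bins centred at 72.5% and 77.5%, with 18.8 and 22.6 peaks per Mb, and chromosome 19 did so at 87.5%, with 27.7 peaks per Mb.

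**Figure D2:**
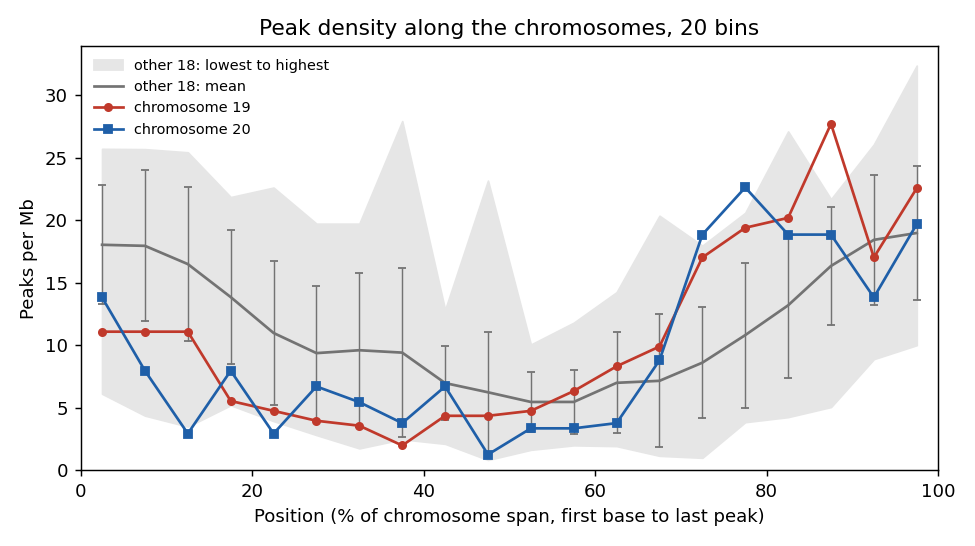
Peaks per Mb in 20 equal bins along the span of chromosome 19 (red circles) and chromosome 20 (blue squares), with the mean of the other 18 chromosomes as a grey line, their SD as bars and their lowest to highest value as the shaded band. Both chromosomes run below the grey mean throughout the first 50% of the span and above it from the bin centred at 67.5% to the bin centred at 87.5%.

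The rise toward the end was abrupt on chromosome 20. When the chromosome was divided at the boundary between windows of 1 Mb that best separated 2 even densities (highest Poisson likelihood, parts of at least 3 Mb), the boundary fell at 35 Mb, or 73.3% of the span. Before it lay 204 peaks at 5.83 per Mb and after it 253 peaks at 19.8 per Mb, a 3.40-fold step. The 5 Mb before the boundary had 41 peaks and the 5 Mb after it had 120. That rise ranked 2 of the 20 chromosomes, behind chromosome 12 (17 to 100 peaks) and close to chromosome 14 (34 to 112). The last window before the boundary had 10 peaks and the next 2 windows had 33 and 35. Those 68 peaks in 2 Mb were 14.9% of all peaks of the chromosome. Only chromosome 10 had a fuller pair of adjoining windows, with 71, and that was 11.6% of its peaks. Density then fell from 120 peaks between 35 and 40 Mb to 79 between 40 and 45 Mb, so that the fullest sequence lay inside the end region and not at the tip.

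On chromosome 19 the rise was spread over a longer distance. The same division fell at 36 Mb, or 71.3% of the span, with 238 peaks at 6.61 per Mb before it and 305 peaks at 21.0 per Mb after it, a 3.18-fold step. In steps of 5 Mb, the count went from 25 peaks between 25 and 30 Mb to 48, 81 and 117 in the following stretches, and was 100 between 45 and 50 Mb. The fullest single window was that from 40 to 41 Mb with 32 peaks. The windows from 44 to 46 Mb held 29 each. When divided in 2, no other chromosome had a ratio of later to earlier density as high as these. Chromosome 3 was next at 2.97-fold, but a division into 2 parts describes chromosomes that are full at both ends poorly. The ratio compares whole parts and not local steepness. Between adjoining stretches of 5 Mb, the largest rise on chromosome 19 was from 48 to 104 peaks, ranked 10 of the 20 chromosomes.

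With 3 parts, the middle part of chromosome 19 ran from 9 to 34 Mb and held 119 peaks at 4.76 per Mb, between a first part of 10.6 and a last part of 19.9 peaks per Mb. On chromosome 20 the middle part ran from 3 to 35 Mb and held 166 peaks at 5.19 per Mb, between 12.7 and 19.8 peaks per Mb. The middle parts were of common density, since the median over the other 18 chromosomes was 5.39 peaks per Mb. Where chromosome 20 departed was in the extent of its middle part, 67.0% of the span against a median of 48.7% on the other 18, of which only chromosome 1 had a longer one at 73.9%. Its first part, 3 Mb, was shorter than on each of the other 18 chromosomes, where it was at least 6 Mb, and 3 Mb was also the shortest length allowed. On chromosome 19 the middle part took 49.5% of the span, close to that median. Its first part of 10.6 peaks per Mb was sparser than on 17 of the other 18 chromosomes.

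Peaks accumulated late along both chromosomes. The first 50% of all peaks took 74.7% of the span of chromosome 19 and 74.9% of that of chromosome 20. On the other 18 chromosomes this share ran from 31.7% on chromosome 6 to 72.8% on chromosome 3, with a median of 47.3%. The first 25% of the peaks ended at 20.7 Mb on chromosome 19 and at 16.9 Mb on chromosome 20, against a median of 7.55 Mb on the others.

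The sparsest stretch of 10 Mb lay at different places. On chromosome 19 it ran from 11.4 to 21.4 Mb, in the first part of the chromosome's long sparse region, and held 29 peaks. On chromosome 20 it ran from 21.1 to 31.1 Mb and also held 29. A lower number was found on 2 of the other 18 chromosomes, the lowest being 26, and their median was 41. In windows of 5 Mb the lowest number was 12 peaks on chromosome 19, met at 12 positions of the window that began between 11.4 and 22 Mb, and 11 on chromosome 20, from 21.2 to 26.2 Mb.

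The fullest 10 Mb did not touch the tips. They ran from 36.1 to 46.1 Mb on chromosome 19 with 219 peaks, 7.55-fold the sparsest (the stretch from 36.9 to 46.9 Mb held as many), and from 34.9 to 44.9 Mb on chromosome 20 with 199 peaks, 6.86-fold the sparsest. Among the other 18 chromosomes this contrast had a median of 4.51 and was larger than on both only on chromosome 10, at 7.81. Chromosome 14, at 6.9, exceeded chromosome 20 but not chromosome 19. The last 5 Mb were ordinary, with 98 peaks on chromosome 19 and 85 on chromosome 20 against a median of 95.5.

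Long stretches had no peak. Of at least 1 Mb in length, chromosome 19 had 6 and chromosome 20 had 5, with totals of 7.45 Mb on each. The other 18 chromosomes had 0 to 6 such stretches, with a median of 2, and the largest total among them was 7.37 Mb on chromosome 10. All 11 lay between 21.1% and 52.1% of the span by their centres, which is before the middle of the chromosome for all but 1 of them.

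On chromosome 19 the longest ran from 18190994 to 19704450 (1.51 Mb), followed by 25620430 to 27018601 (1.40 Mb) and 11310195 to 12523158 (1.21 Mb). The remaining 3 ran from 21903591 to 23054025 (1.15 Mb), from 24499609 to 25619632 (1.12 Mb) and from 15679020 to 16729805 (1.05 Mb). Those that began at 24499609 and 25620430 were separated by a single peak of 797 bp, so that 2.52 Mb held that peak alone.

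On chromosome 20 the longest ran from 21143772 to 23254557 (2.11 Mb), ranked 3 by length over all 20 chromosomes, followed by 12593650 to 14201517 (1.61 Mb) and 9433266 to 10743651 (1.31 Mb). Stretches from 18641141 to 19894015 (1.25 Mb) and from 17472869 to 18640564 (1.17 Mb) adjoined a single peak of 576 bp. Here too 2.42 Mb held no other peak. Counting stretches of at least 0.5 Mb, chromosome 20 had 18 that took up 33.6% of the span, the same share as chromosome 10 within rounding. Chromosome 19 had 15, at 25.8% of the span, against a median of 19.4%. How far reads map uniquely within them was not tested.

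**Figure D3:**
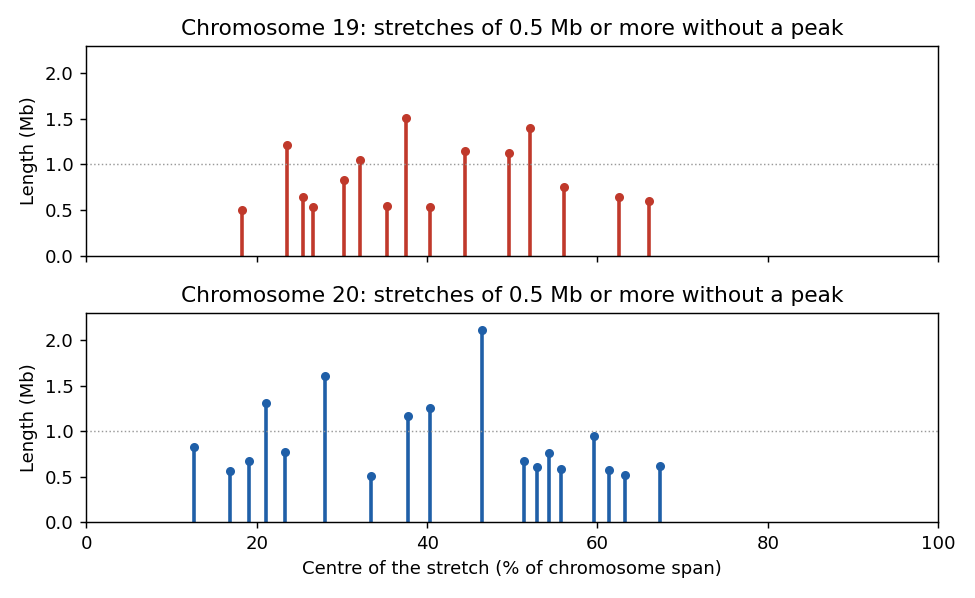
Stretches of at least 0.5 Mb without a peak on chromosome 19 (top) and chromosome 20 (bottom), placed by their centre along the span, with their length in Mb as height and 1 Mb dotted. On chromosome 19 they lie between 18.2% and 66.1% of the span and on chromosome 20 between 12.6% and 67.3%, and none lies in the dense end of either.

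Each chromosome had 4 peaks with at least 0.5 Mb free on both sides, and the other 18 had 0 to 5, with a median of 1.5. On chromosome 19 they were 264, 1308, 297 and 797 bp wide and lay between 12523159 and 25620429. On chromosome 20 they were 573, 133, 576 and 628 bp wide and lay between 9432693 and 25571448. Their widths thus spanned those of other peaks, from well under the modal width to over 1 kb.

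The sparse middle parts also held windows that were crowded for those parts. A count of 10 was common elsewhere, being the median over the other 18 chromosomes of their median count per window of 1 Mb. The 25 windows of 1 Mb in the middle part of chromosome 19 had a median of 5 peaks, 2 were empty, and 1 held at least 10. That window, from 27 to 28 Mb, had 13 peaks from 27018602 to 27984741, right behind the stretch of 1.40 Mb without a peak. The 32 windows in the middle part of chromosome 20 also had a median of 5, 2 were empty, and 5 held at least 10. Those from 33 to 34 and from 34 to 35 Mb held 10 each and adjoined the rise at 35 Mb. The fullest of the 5 was from 14 to 15 Mb, with 17 peaks from 14201518 to 14892170. It followed the peak-free stretch of 1.61 Mb, and the next window had 2 peaks. Its median width was 638 bp, 4 of its peaks were at least 1 kb wide and 1 had the modal width of the list. A smaller group of 13 peaks lay from 8345104 to 8760346, with 565 kb free before and 672 kb free after it.

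Median widths were ordinary on both chromosomes. The median was 447 bp on chromosome 19 (upper quartile 591 bp) and 441 bp on chromosome 20 (upper quartile 586 bp), against 453 bp over the peaks of the other 18 chromosomes (upper quartile 597 bp). The lower quartile was the modal width in all 3 sets. That width, the most frequent in the whole list, is 0.31 kb when rounded to 10 bp. The 95% order-statistic intervals of the medians were 419 to 473 bp and 418 to 470 bp. Medians of the other 18 chromosomes ran from 416.5 to 472 bp, so both lay inside their range. The narrowest peak had 33 bp on chromosome 19 and 37 bp on chromosome 20.

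The modal width was that of 80 peaks on chromosome 19 (14.7%, interval 11.9 to 18.0) and 77 on chromosome 20 (16.8%, 13.5 to 20.6). On the other 18 chromosomes together it was 16.1% (15.4 to 16.8). Widths below the modal one belonged to 14.0% of peaks on chromosome 19 (11.2 to 17.2), 12.7% on chromosome 20 (9.78 to 16.1) and 12.1% on the others (11.5 to 12.8). At least 1 kb was reached by 28 peaks on chromosome 19 (5.16%, 3.45 to 7.37) and by 25 on chromosome 20 (5.47%, 3.57 to 7.97), compared with 5.08% on the others (4.65 to 5.54). At least 2 kb was reached by 10 peaks on chromosome 19 (1.84%, 0.887 to 3.36), a share that 3 of the other 18 chromosomes exceeded. On chromosome 20 there were 5 (1.09%, 0.356 to 2.53), and on the others together the share was 0.957%. In each of these classes the intervals of both chromosomes included the value of the other 18.

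Within each chromosome, peaks of the modal width had a lower share in the sparse middle part than in the dense last part. On chromosome 19 they made up 7.56% of the middle part (9 of 119, interval 3.52 to 13.9) and 16.4% of the last part (54 of 329, 12.6 to 20.9). On chromosome 20 the shares were 11.4% (19 of 166, 7.03 to 17.3) and 20.2% (51 of 253, 15.4 to 25.6). The direction of this share was not particular to these chromosomes. On the other 18 the median share was 12.9% in the inner 50% of the span and 17.0% in the last 25%. By that division it was 9.20% and 17.0% on chromosome 19, and 14.9% and 19.6% on chromosome 20. These differences within a chromosome were not tested. The median width was 488 bp in the middle part of chromosome 19 (order-statistic interval 462 to 537) and 425 bp in the last part (405 to 468). On chromosome 20 it was 474 bp (432 to 522) and 426 bp (404 to 470). By the inner 50% and the last 25% it was 475 and 441 bp on chromosome 19, and 474 and 427 bp on chromosome 20. The medians of the other 18 chromosomes lay closer together, at 467 and 460 bp in the middle of their range.

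Wide peaks were placed differently on the 2 chromosomes. On chromosome 20 the middle part had 15 of the 25 peaks that reached 1 kb, where they made up 9.04% of peaks (5.15 to 14.5), against 8 in the last part (3.16%, 1.37 to 6.14). On chromosome 19 the middle part had 7 of 28 (5.88%, 2.40 to 11.7) and the last part had 16 (4.86%, 2.80 to 7.78). No peak in the middle part of chromosome 19 reached 2 kb, and 8 in its last part did. On chromosome 20, 4 of the 5 that wide belonged to the middle part. Of the 16 in the last part of chromosome 19, 10 belonged to the compact runs described below. On the other 18 chromosomes the median share of peaks of at least 1 kb was 5.67% in the inner 50% of the span. In the last 25% it was 4.03%. By that division it was 9.46% and 3.1% on chromosome 20. On chromosome 19 it was 4.29% and 5.56%, the reverse of the order by parts. Whether the chromosomes differ in this respect was not tested.

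The 5 widest peaks of chromosome 20 lay apart from one another. The widest ran from 31467755 to 31471848 with 4094 bp and the next from 32901474 to 32904654 with 3181 bp, both in the sequence just before the rise at 35 Mb. Peaks of 2367 bp from 38287002 to 38289368, of 2179 bp from 17463516 to 17465694 and of 2171 bp from 16962173 to 16964343 followed. On chromosome 19 the widest had 4795 bp, and all 5 of the widest belonged to a pair of compact runs in the dense end. Outside the runs the widest were single peaks near the start, with 2456 bp from 2354455 to 2356910 and 2321 bp from 5355481 to 5357801.

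**Figure D4:**
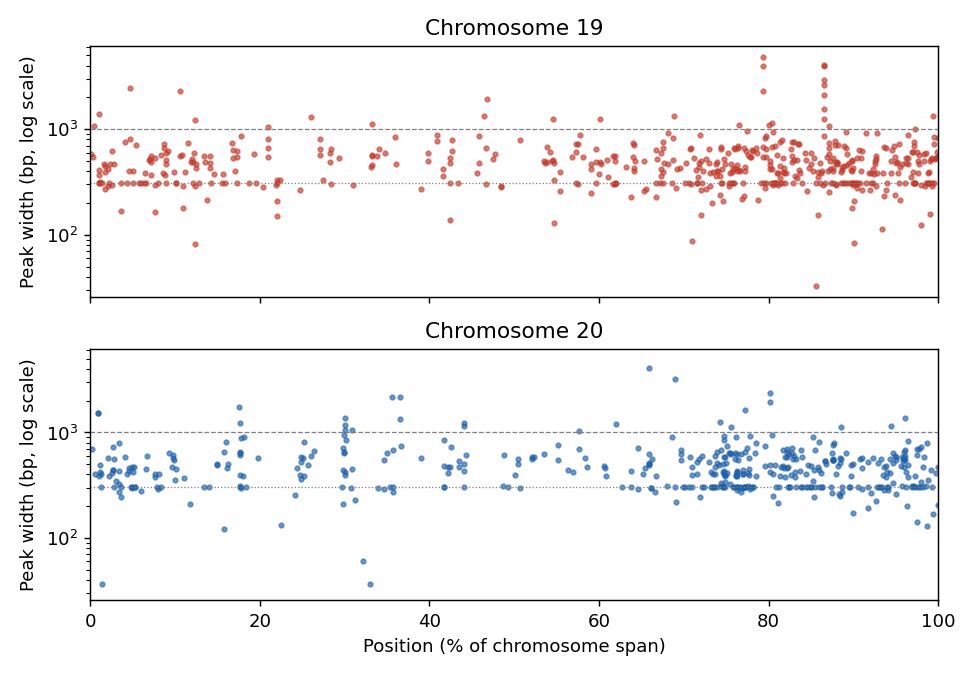
Width of each peak in bp on a log scale against its position along the span, for chromosome 19 (top, 543 peaks) and chromosome 20 (bottom, 457 peaks), with the modal width of the list dotted and 1 kb dashed. The columns of wide peaks at 79.3% and 86.6% of the span of chromosome 19 are the runs near 40.1 and 43.72 Mb, and chromosome 20 has no such column.

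The cluster that began at 43.72 Mb of chromosome 19 was a row of 8 wide peaks from 43722129 to 43746708. In order along the chromosome they were 866, 2906, 1569, 2629, 1257, 4052, 3942 and 2116 bp wide, so that only the first was under 1 kb and 5 reached 2 kb. The gaps between them were 1095, 527, 1329, 408, 389, 901 and 594 bp, with a median of 594 bp. The smallest gap between any neighbouring peaks on the 20 chromosomes was 304 bp, so that several of these gaps were near the lower limit seen in the list. Peaks covered 19337 bp of 24.6 kb, or 78.7%. The broadest peaks, the sixth and seventh, lay side by side from 43735104 to 43743998.

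The cluster ended sharply. No peak lay in the 71.7 kb before it or in the 59.6 kb after it. Within 100 kb on either side there were 2 peaks, the wider of which had the modal width. Within 500 kb on either side there were 21 peaks with a median width of 396 bp and a maximum of 1067 bp, at 21.0 per Mb, which is the density of the chromosome's end as a whole. The number of peaks around the cluster was thus that of its surroundings, while 7 of the 8 peaks inside it were wider than any within 500 kb.

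A similar but shorter run lay 3.6 Mb before it, from 40071652 to 40084477, and held the widest peak of the chromosome. Its 4 peaks were 4795, 2305, 3944 and 548 bp wide, with gaps of 372, 316 and 546 bp, and they covered 90.4% of 12.8 kb. Joining neighbours into chains wherever the gap was 10 kb or less gave chains across the genome, of which 167 on the 20 chromosomes had at least 4 peaks, and this run was the most fully covered of them. A run of 5 wide peaks on chromosome 17 was second at 79.0% and the longer cluster described above came next, at 78.7%. The other 18 chromosomes had 146 of these chains, with a median coverage of 16.8%. Among them, 11 had at least 8 peaks, as the cluster did, with a median coverage of 42.2% and a highest of 58.7%. A single peak lay 13.3 kb before the run, and the 76.6 kb after it had none.

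Together the cluster and the run held 12 peaks, 2.21% of the peaks of chromosome 19 and 10.7% of its covered sequence. They included 8 of its 10 peaks of at least 2 kb and 10 of its 28 of at least 1 kb. These peaks were singled out for their width, so widths without them were not compared with other chromosomes. The other 531 peaks of chromosome 19 included 2 of at least 2 kb.

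**Figure D5:**
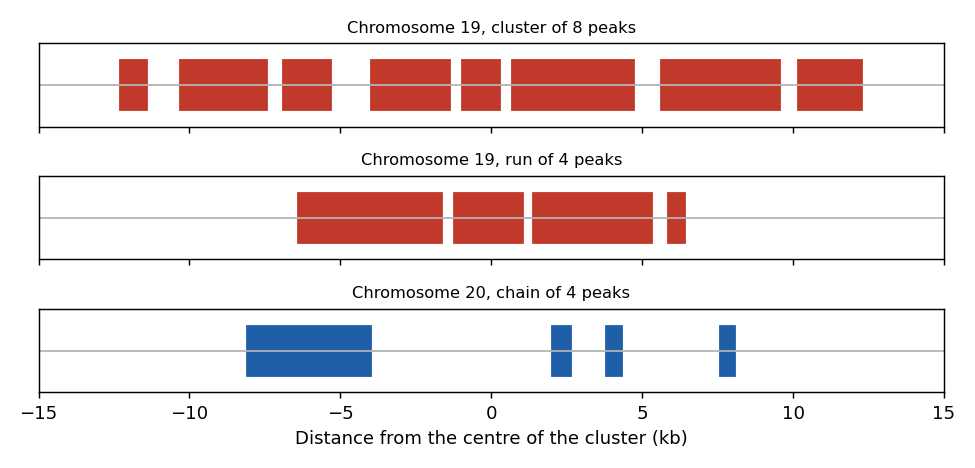
Peaks drawn to scale as filled boxes against the distance from the centre of each group in kb, for the cluster of 8 peaks near 43.72 Mb of chromosome 19 (top), the run of 4 peaks near 40.1 Mb of chromosome 19 (middle) and the chain that holds the widest peak of chromosome 20 (bottom). Peaks fill 78.7%, 90.4% and 35.4% of the 3 groups.

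Chromosome 20 had more chains of at least 5 peaks than chromosome 19, and none of them was as fully covered as the cluster or the run. It had 5 of them, as did chromosomes 6, 15 and 18, and chromosome 19 had 2. The 20 chromosomes had 55 in all, with a median of 3 on the other 18. On chromosome 20 the chain with most peaks, 7, ran from 8414809 to 8433404, with a median width of 615 bp and a coverage of 22.4%. A chain of 6 ran from 14307751 to 14325139 inside the crowded window of the middle part, with a median of 1002.5 bp, 3 peaks of at least 1 kb and a coverage of 32.1%. The 3 chains of 5 peaks ran from 21027786 to 21048337, from 36406154 to 36426903 and from 36440368 to 36463927, with coverages of 17.5%, 10.1% and 8.26%. The last of these were 13.5 kb apart, in the fullest windows behind the rise. The first ended 94.8 kb before a further peak, beyond which the stretch of 2.11 Mb without a peak began. The second chain of chromosome 19 had 5 peaks from 46836991 to 46859060, a median width of 517 bp and a coverage of 12.1%.

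Close spacing was about as frequent as elsewhere. Midpoints of neighbouring peaks lay within 5 kb in 86 of 542 pairs on chromosome 19 (15.9%, interval 12.9 to 19.2) and in 80 of 456 on chromosome 20 (17.5%, 14.2 to 21.4). The other 18 chromosomes ran from 12.0% to 22.3% with a median of 15.3%. In the middle part of chromosome 19 the share was 19.5% (12.8 to 27.8) and in its last part 15.2% (11.5 to 19.6), although the last part was 4.18-fold as dense. On chromosome 20 the shares were 18.2% (12.6 to 24.9) and 17.9% (13.3 to 23.2), with a density 3.83-fold higher in the last part. On the other 18 chromosomes the median share was 18.2% in the inner 50% of the span and 14.4% in the last 25%. By that division it was 16.7% and 16.0% on chromosome 19, and 21.1% and 15.7% on chromosome 20. The parts had been divided by density, and the difference between them was not tested.

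The typical distance between neighbours was shorter in the dense parts. The median distance between midpoints was 65.2 kb in the middle part of chromosome 19 and 33.5 kb in the last part, and 73.2 kb and 29.3 kb on chromosome 20. In the first 25% of the span it was 68.2 kb on chromosome 19 and 59.1 kb on chromosome 20, against at most 52.8 kb on the other 18 chromosomes. This distance depends on the density of the starts, for which both were chosen. Chromosome 13 had a sparser start (5.94 peaks per Mb) and a shorter median distance, at most 52.8 kb. What sets the distance was not tested. Peaks with more than 100 kb free on both sides made up 8.10% of chromosome 19 (5.95 to 10.7) and 10.1% of chromosome 20 (7.46 to 13.2), against a median of 8.38% on the other 18.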

How the data were processed

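The deposited list was made by the authors from the paired-end ATAC-seq samples of 2 replicates, per the series' design text. Each row holds a sequence name and a peak's start (from 0) and end in base pairs, with no other value. The submitters' processing notes name SAMtools, bedtools, HOMER and Bowtie2 2.3.4.1, with no role or order. Not given in the sources used here are the build, how peaks were called, how replicates were joined and whether the Tn5 offset was handled. If only regions shared by both replicates were kept, others are missing and edges can differ.

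Positions were analysed in Python 3.11.15 with pandas 2.3.3, numpy 2.4.6, scipy 1.17.1 and, for plots, matplotlib 3.10.9. Peaks were assigned by their midpoint, and spans ended at the last peak, a lower bound of chromosome length. Stretches of 10 Mb were moved in steps of 100 kb. The splitting and window procedures were tested on simulated positions. Named regions were the first, last and 5 widest peaks, peak-free stretches from 1 Mb, the sparsest and fullest 10 Mb, chains of at least 5 peaks and the cluster peaks. The run near 40.1 Mb, crowded windows and peaks between free stretches were added after their values were seen. Members and measures were chosen with earlier results of these data known. No sequence or gene is given, because no genome was used here, and the build of the list could not be matched to that of the gene table, Glycine_max_v4.0.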

Additional observations from a re-analysis of the deposited data

How the results depend on the processing

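Of 54 alternatives for 16 values, 28 stayed close (within the main interval for shares and medians, 1 Mb for a boundary, 1.5 times for counts and stretches), 26 moved and 0 reversed. A reversal was defined only for the start's share of outer peaks, as a start with more outer peaks than the end. Both chromosomes were chosen on that contrast, so the absence of reversals is no evidence of stability. The start's share of outer peaks ranged from 26.2% to 35.9% on chromosome 19, always among the 3 lowest of 20 chromosomes, and from 26.1% to 39.4% on chromosome 20, among the 5 lowest. It left the main interval only with the first and last 10% of the span, at 35.9% and 39.4%. The boundary of the dense end moved to 34 Mb on chromosome 19 and 33 Mb on chromosome 20 with chains of up to 10 kb gaps counted once, and to 34 Mb on chromosome 19 with 3 parts. With peaks of at least the median width, the sparsest stretch of chromosome 20 had 1.7 peaks per Mb and the chromosome had 11 peak-free stretches. Stretches from 0.5 Mb numbered 15 and 18. Medians over peaks of at least the modal width were 484 and 474 bp. From 2 kb, wide peaks were 1.84% and 1.09%, and without the wide-peak runs chromosome 19 had 3.39% from 1 kb. Neighbours within 2 kb were 6.46% and 7.24%, and within 10 kb 24.0% and 28.5%. Chains of at least 5 peaks, 2 and 5, became 1 and 1 with gaps up to 5 kb, 8 and 10 with gaps up to 20 kb, and 1 and 3 after merging peaks within 1 kb. Counting from 8 peaks left 1 and 0. Narrower limits count fewer items by construction. The alternatives with 3 parts, without the runs and from 8 peaks were chosen after seeing the data. No paired analysis was possible because replicates are not named in the list, so leaving out a replicate was not run either. Depth was unknown and its effect was not tested.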
